A study of Homo sapiens with 4 samples.

Results

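Polyamine metabolism was followed through 10 genes, chosen by gene symbol: ODC1, AMD1, SRM, SMS, OAZ1, OAZ2, AZIN1, SAT1, SMOX and PAOX. All 10 were present among the 17791 genes of the deposited table, each with a count in every library. The libraries came from tissues engineered by holding human cells in a hydrogel of poly(ethylene glycol) and fibrinogen, and were made on day 15. There were 4 groups of 1 library each: a coculture of LNCaP with BJ-5ta fibroblasts, an LNCaP monoculture, a coculture of PC-3 with BJ-5ta fibroblasts, and a PC-3 monoculture. LNCaP is an androgen-responsive prostate cancer line, and its tissues carry the label ADPC. PC-3 is a castration-resistant line, and its tissues carry the label CRPC-ne. BJ-5ta is a line of normal human fibroblasts immortalised with telomerase. Cocultures were seeded with 5 cancer cells to 1 fibroblast, and no other agent is given for any group. The growth protocol describes only the medium of PC-3 tissues, so the medium and androgen supply of the LNCaP tissues were not known.

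The polyamines putrescine, spermidine and spermine are small positively charged molecules that bind nucleic acids and are needed for growth. Ornithine is made into putrescine, and aminopropyl groups drawn from S-adenosylmethionine turn putrescine into spermidine and then spermine. Antizymes hold the first enzyme in check, and acetylation and oxidation return the longer polyamines to shorter ones or mark them for export. The normal prostate makes and secretes large amounts of spermine, and ODC1 is known there as an androgen-responsive gene. ODC1, AMD1 and the antizymes are strongly controlled at translation and protein turnover, which RNA counts do not measure.

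Totals of estimated counts were close, between 15520243 and 15865690 per library. There were no replicates and RNA came from more than 2 tissues per group by an unstated route, so each difference below compares 2 libraries, no test was possible, and each 95% interval covers counting error only. Summed marker genes followed the labels, although TMPRSS2, of the LNCaP list, also had 6384 and 7309 counts in the PC-3 coculture and monoculture. KLK3, which encodes prostate-specific antigen, had 74134 and 60226 counts in the LNCaP coculture and monoculture and 0 in either PC-3 library. The sum of 10 fibroblast markers was 8264 counts in the LNCaP coculture, against 13 in the LNCaP monoculture, and 4149 in the PC-3 coculture, against 29 in its monoculture. POSTN, a matrix protein gene of that list, was at 0 in all libraries but the PC-3 coculture, where it had 2 counts. Of the markers of other cell types, PECAM1 had 1 and 0 counts in the LNCaP coculture and monoculture and 1091 and 806 in the PC-3 coculture and monoculture, while VWF had 567, 171, 3 and 0 and CD68 245, 67, 888 and 678 in the same order; their part in the results was not tested.

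Sequences are shown first for the features through which these genes are known to be controlled. Antizyme is made only when ribosomes shift frame at a stop codon inside the coding region, a step that polyamines promote. The shift sites of OAZ1 (chr19:2271428-2271457, plus strand) and OAZ2 (chr15:64691501-64691530, minus strand) were read from GENCODE v29 transcripts on GRCh38. The capitals mark TCC, the last codon read before the shift, and the TGA stop that follows it.
OAZ1: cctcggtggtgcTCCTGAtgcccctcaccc
OAZ2: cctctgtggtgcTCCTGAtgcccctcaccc
The stretches were identical at 29 of 30 bases. TCC was the last of 68 codons from the start codon in OAZ1 and of 32 in OAZ2.

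Promoter windows, 250 bases before to 50 after a RefSeq transcription start on GRCh38.p14, were at hand for 7 of the 10 genes, in 10 windows. They were searched on both strands for CACGTG, the E-box bound by MYC with its partner MAX. ODC1 held 2 E-boxes in the window of its downstream start, at bases -29 and 5 from that start. They lie in intron 1 of the transcript that begins at the upstream start, and the stretch from the first base of that intron is shown because MYC is known to act on ODC1 there (chr2:10447988-10448120, minus strand, E-boxes in capitals).
ODC1: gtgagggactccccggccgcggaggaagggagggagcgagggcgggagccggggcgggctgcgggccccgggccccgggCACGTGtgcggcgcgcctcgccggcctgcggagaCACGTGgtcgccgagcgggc
SRM held 1 E-box, at base -199 (chr1:11060149-11060268, minus strand).
SRM: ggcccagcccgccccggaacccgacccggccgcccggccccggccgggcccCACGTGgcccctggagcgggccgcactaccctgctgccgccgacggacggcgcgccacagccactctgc
Among 34796 distinct RefSeq windows, 7.20% held CACGTG and 0.652% held it at least 2 times. The windows of AMD1, SMS, OAZ1, OAZ2 and SAT1 had no CACGTG.

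ODC1 and AMD1 also shared a TATAA near a start, in a position that 4.11% of all windows hold it (45 to 16 bases before the start). This motif was looked for after the sequences had been seen. It is in capitals in the stretches from ODC1 (chr2:10448338-10448367, minus strand) and AMD1 (chr6:110874745-110874774, plus strand).
ODC1: gccggtgcTATAAgtagggagcggcgtgcc
AMD1: gagccgggataTATAAgggcggtgctcacg

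ODC1 and AMD1, which encode the decarboxylases that open the 2 arms of polyamine synthesis, had opposite orders in the lines. Levels are given in CPM, counts per 1000000 of a library total scaled by the trimmed mean of M values (TMM). Ornithine decarboxylase is encoded by ODC1 (chr2:10439968-10448327) and makes putrescine. ODC1 stood at 409.2 and 412.9 CPM in the LNCaP coculture and monoculture, and at 970.7 and 1436.4 CPM in the PC-3 coculture and monoculture. It was lower in both LNCaP libraries, which were within counting error of each other, than in either PC-3 library, and highest in PC-3 cells alone.

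AMD1 (chr6:110814617-110895713) encodes S-adenosylmethionine decarboxylase, which supplies the aminopropyl groups. AMD1 stood at 1465.0 and 1620.2 CPM in the LNCaP coculture and monoculture, and at 208.0 and 280.8 CPM in the PC-3 coculture and monoculture. With 22725 and 25585 counts, it ranked 36 among all genes by CPM in either LNCaP library, against 943 and 576 in the PC-3 coculture and monoculture. ODC1 ranked 305 and 309 in the LNCaP coculture and monoculture, against 66 and 32 in the PC-3 coculture and monoculture.

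The aminopropyltransferases differed less. SRM (chr1:11054589-11060018), spermidine synthase, stood at 152.1 and 126.9 CPM in the LNCaP coculture and monoculture and at 87.9 and 100.4 CPM in the PC-3 coculture and monoculture. SMS (chrX:21940709-21994837), spermine synthase, stood at 98.5 and 93.5 CPM in the LNCaP coculture and monoculture and at 82.4 and 92.2 CPM in the PC-3 coculture and monoculture. SMS had the narrowest range of the 10 genes, 0.26 on the log2 scale from its lowest to its highest library, and its LNCaP libraries and the PC-3 monoculture were within counting error of their neighbours in this order.

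Antizyme 1, from OAZ1 (chr19:2269486-2273488), binds ODC and sends it to the proteasome. OAZ1 stood at 712.4 and 788.1 CPM in the LNCaP coculture and monoculture and at 306.4 and 369.6 CPM in the PC-3 coculture and monoculture. OAZ2 (chr15:64687574-64703281), a second antizyme, stood at 155.5 and 136.3 CPM in the LNCaP coculture and monoculture and at 77.2 and 90.0 CPM in the PC-3 coculture and monoculture. Both antizyme genes were thus higher in each LNCaP library than in each PC-3 library. Antizyme inhibitor 1, from AZIN1 (chr8:102826302-102864200), resembles ODC without its activity and draws antizyme away from it. AZIN1 had the other order, with 239.8 and 244.2 CPM in the LNCaP coculture and monoculture and 320.7 and 343.8 CPM in the PC-3 coculture and monoculture.

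Among the catabolic genes, SAT1 (chrX:23783173-23786210) encodes the acetyltransferase of spermidine and spermine. SAT1 stood at 200.7 and 208.9 CPM in the LNCaP coculture and monoculture and at 85.6 and 98.9 CPM in the PC-3 coculture and monoculture. SMOX (chr20:4148828-4187727) encodes the oxidase that turns spermine back into spermidine and releases hydrogen peroxide. SMOX was low in LNCaP, with 110 and 101 counts (7.09 and 6.40 CPM) in the coculture and monoculture, against 826 and 878 counts (52.7 and 55.0 CPM) in the PC-3 coculture and monoculture. PAOX (chr10:133379262-133391694) encodes the peroxisomal oxidase of acetylated polyamines and was scarce, with 112 and 103 counts (7.22 and 6.52 CPM) in the LNCaP coculture and monoculture, against 48 and 53 counts (3.06 and 3.32 CPM) in the PC-3 coculture and monoculture. For both oxidases the coculture and monoculture of a line were within counting error of each other.

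**Figure D1:**
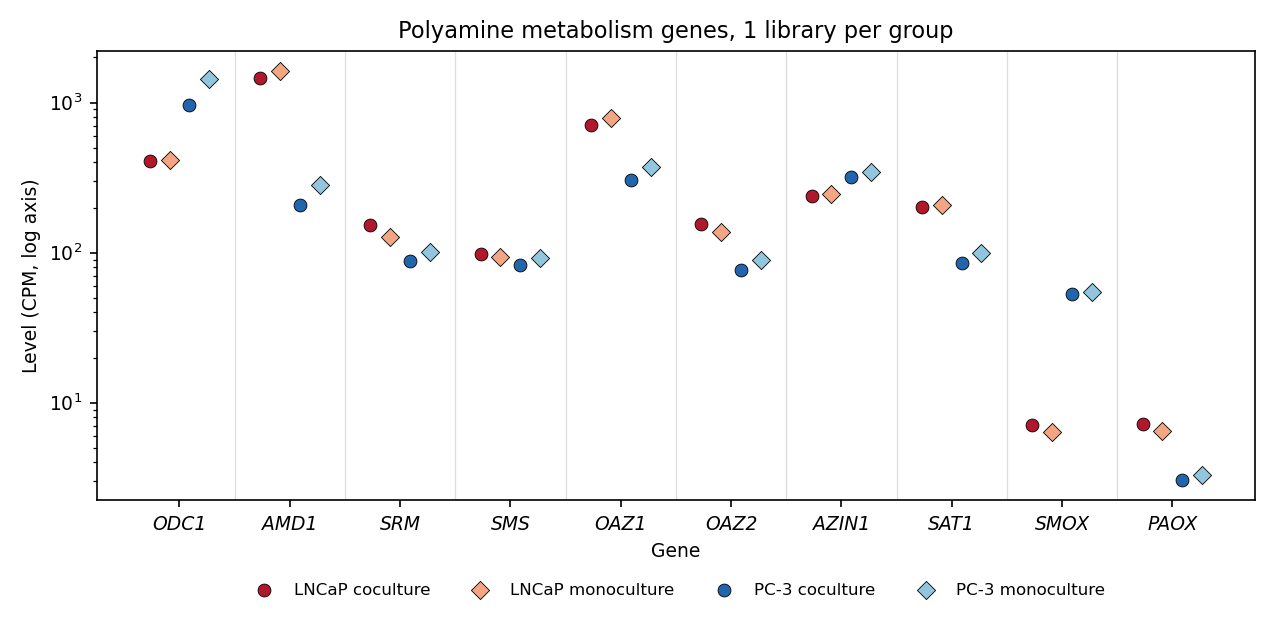
Level of each gene in CPM (log axis) in the 4 libraries; circles are cocultures and diamonds monocultures. ODC1, AZIN1 and SMOX were higher in both PC-3 libraries, SMS lay within 82.4 to 98.5 CPM, and the other 6 genes were higher in both LNCaP libraries.

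The kit does not mark the strand, and reads may be shared with copies: RefSeq names 4 pseudogenes of AMD1, 3 of SRM, 1 of SMS and 1 of OAZ1, none of which is in the table. ODC1-DT, a divergent transcript beside ODC1, had 20 and 12 counts in the LNCaP coculture and monoculture, and 11 and 1 in the PC-3 coculture and monoculture.

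Levels were compared between genes per kilobase of transcript (CPM per kb). On this scale OAZ1 led in LNCaP, with 620.6 CPM per kb in the coculture and 686.5 in the monoculture, ahead of AMD1 with 426.1 and 471.3. In PC-3 ODC1 led, with 365.9 CPM per kb in the coculture and 541.4 in the monoculture, ahead of OAZ1 with 266.9 and 322.0. SAT1 ranked 3 of 10 in every library. ODC1 made up 9.07% and 8.70% of the summed CPM per kb of the 10 genes in the LNCaP coculture and monoculture, against 35.8% and 41.2% in the PC-3 coculture and monoculture. AMD1 made up 25.0% and 26.3% in the LNCaP coculture and monoculture, against 5.93% and 6.22% in the PC-3 coculture and monoculture.

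**Figure D2:**
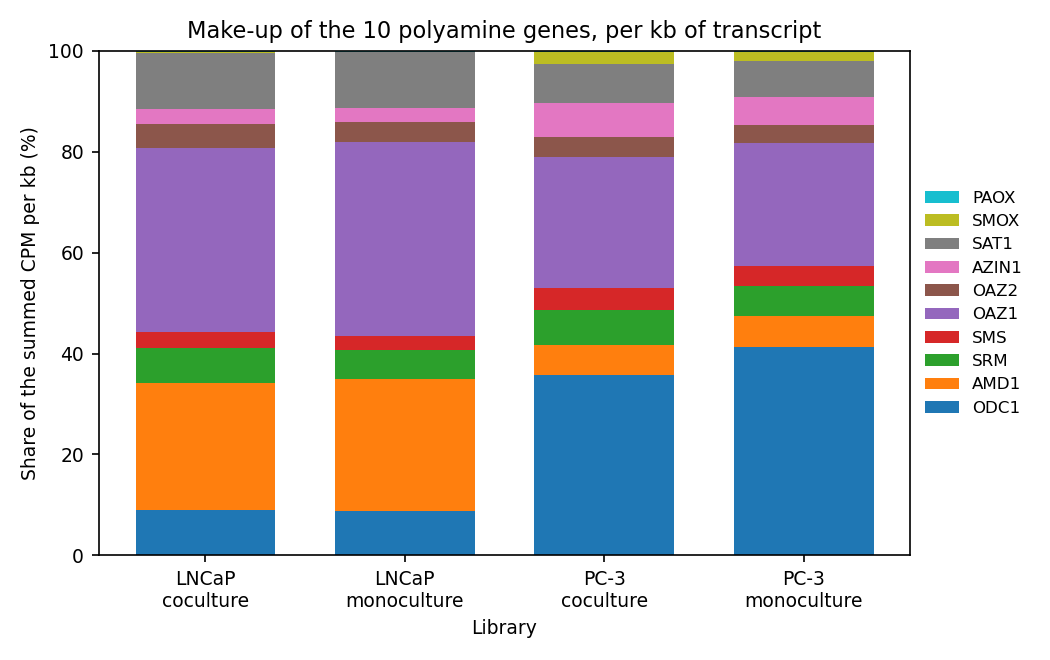
Share of each gene in the summed CPM per kb of the 10 genes, 1 bar per library. ODC1 at the base took 35.8% and 41.2% in the PC-3 coculture and monoculture, against 9.07% and 8.70% for the LNCaP libraries, where AMD1 took 25.0% and 26.3%.

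Ratios taken within a library do not depend on its scaling; the pairs were chosen after the values had been seen. ODC1 to AMD1 per kb was 0.362 in the LNCaP coculture (95% counting interval 0.352 to 0.372) and 0.330 in its monoculture (0.321 to 0.339). It was 6.05 in the PC-3 coculture (5.82 to 6.28) and 6.63 in its monoculture (6.42 to 6.85). Each LNCaP library thus had less ODC1 than AMD1 RNA per kb, and each PC-3 library more. ODC1 to OAZ1 was 0.249 and 0.227 in the LNCaP coculture and monoculture and 1.37 and 1.68 in the PC-3 coculture and monoculture. AZIN1 to OAZ1 was 0.0819 and 0.0754 in the LNCaP coculture and monoculture and 0.255 and 0.226 in the PC-3 coculture and monoculture. SAT1 to ODC1 was 1.22 and 1.26 in the LNCaP coculture and monoculture and 0.220 and 0.172 in the PC-3 coculture and monoculture. Against its antizyme and against the acetyltransferase, ODC1 RNA per kb was therefore on the other side of 1 in PC-3. For SAT1 this rests on the transcript lengths used, 1065 bases against 2653 for ODC1. By counts SAT1 was below ODC1 in every library, with 3113 against 6348 in the LNCaP coculture and 3299 against 6520 in the LNCaP monoculture. SMOX to PAOX was 0.817 and 0.816 in the LNCaP coculture and monoculture, with intervals that included 1, and 14.3 and 13.8 in the PC-3 coculture and monoculture. OAZ1 to OAZ2, between 6.68 and 9.74, and SRM to SMS, between 1.55 and 2.24, kept to 1 side of 1 in all libraries.

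In monoculture, LNCaP was compared with PC-3 to see how the lines differ without fibroblasts. AMD1 was 5.77-fold higher in LNCaP (5.59 to 5.96), OAZ1 2.13-fold higher (2.07 to 2.20) and SAT1 2.11-fold higher (1.99 to 2.24). SMOX was 8.60-fold lower in LNCaP (6.99 to 10.7) and ODC1 3.48-fold lower (3.38 to 3.58). The remaining genes were within 2-fold, from PAOX at 1.96-fold higher (1.40 to 2.79) and OAZ2 at 1.51-fold higher (1.42 to 1.62) to AZIN1 at 1.41-fold lower (1.35 to 1.47). SRM was 1.26-fold higher, and SMS differed by less than counting error (1.01-fold, 0.943 to 1.09). At least 2-fold higher in LNCaP were 3 of the 10 genes, beside 22.1% of 15160 genes, and at least 2-fold lower were 2 of 10, beside 23.6%. These shares are near the background. The median log2 fold was 0.47 over the 10 genes and 0.04 over all genes. With a trend on transcript length and GC content taken out, SAT1 was under 2-fold (log2 0.88).

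In coculture each of the 10 genes lay on the side it had in monoculture, SMS within counting error there and at -0.05 on the log2 scale under DESeq2 size factors. AMD1 was 7.04-fold higher in the LNCaP coculture than in the PC-3 coculture (6.79 to 7.31), OAZ1 2.33-fold higher (2.25 to 2.41), SAT1 2.34-fold higher (2.20 to 2.50) and PAOX 2.36-fold higher (1.67 to 3.38). OAZ2 was 2.01-fold higher (1.88 to 2.16), which 2 other scalings put under 2-fold (log2 0.98 and 0.95). SMOX was 7.43-fold lower (6.09 to 9.15) and ODC1 2.37-fold lower (2.30 to 2.44). SRM was 1.73-fold higher, SMS 1.19-fold higher and AZIN1 1.34-fold lower. At least 2-fold higher were 5 of 10, beside 20.7% of 15155 genes, and at least 2-fold lower were 2 of 10, beside 23.6%. Medians were 0.90 over the 10 genes and 0.01 over all genes on the log2 scale. The LNCaP coculture had more fibroblast marker RNA than the PC-3 coculture (532.8 against 264.8 CPM summed), and its part in these folds was not tested.

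**Figure D3:**
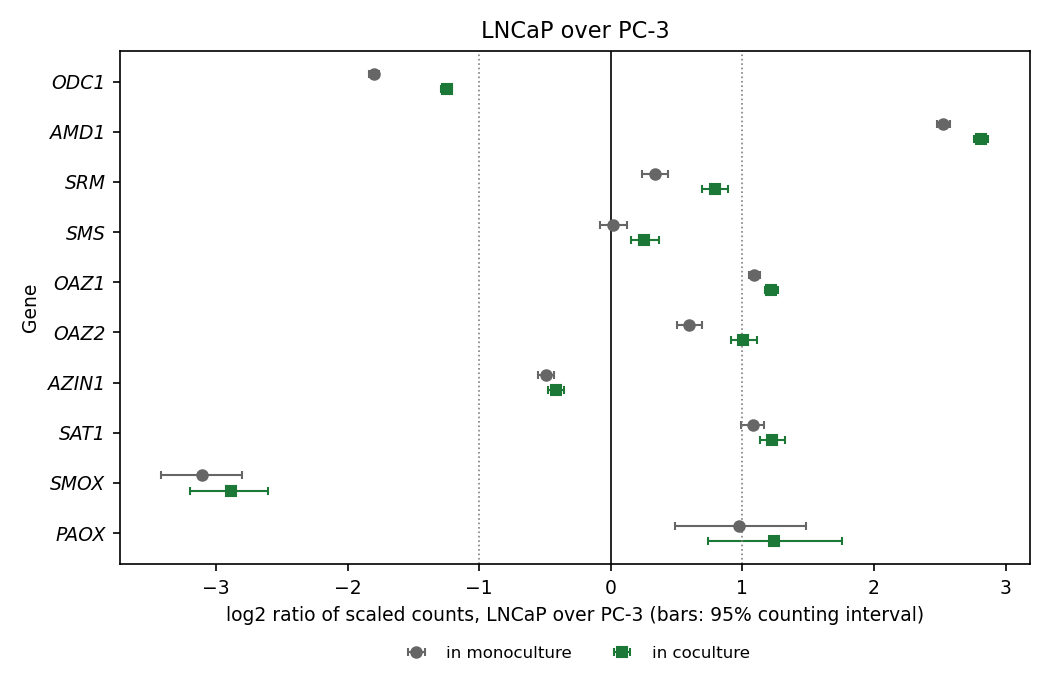
Log2 ratio of scaled counts, LNCaP over PC-3, in monoculture (circles) and in coculture (squares), with 95% counting intervals; dotted lines mark 2-fold. AMD1 lay furthest right, 5.77-fold and 7.04-fold higher in LNCaP, and SMOX furthest left, 8.60-fold and 7.43-fold lower.

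AMD1 lies on chromosome 6, and its neighbours were examined after its values had been seen. Of the 10 nearest measured protein-coding genes, 5 on either side, 7 were at least 2-fold higher in LNCaP and 0 were at least 2-fold lower, in monoculture (beside 22.1% and 23.6% of all genes) and in coculture (beside 20.7% and 23.6%). The 7 differed by 1 gene, REV3L in monoculture (log2 1.30, against 0.95 in coculture) and TRAF3IP2 in coculture (1.29, against 0.74 in monoculture). Their log2 folds ran between 0.68 and 5.44 in monoculture, with a median of 1.39. The kinase gene CDK19, next to AMD1, had a log2 fold of 1.72 in monoculture (6095 counts in LNCaP, 1868 in PC-3), and GTF3C6 on the other side had 1.48 (912 and 329 counts). Around ODC1, 0 of 10 neighbours were at least 2-fold higher in LNCaP and 3 lower in either culture, near the shares of all genes for the lower side. Around SMOX, 0 of 10 were higher, while 3 were lower in monoculture and 5 in coculture, beside 23.6% of all genes in each. Around OAZ1, 6 of 10 were higher and 1 lower in monoculture, with a median of 1.06, and 1 higher and 2 lower in coculture. Around SAT1, 1 was higher in monoculture and 2 in coculture, and 1 was lower in each. The copy number of these regions was not measured here.

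The genes most like ODC1, AMD1 and SMOX over the 4 libraries were found among 8911 genes at 20 mean CPM or more, by the distance between mean-centred log2 CPM. For SMOX these were GBP2 (distance 0.012), ATXN1 (0.074) and RNASE4 (0.076). For AMD1 they were CAMK2B (0.096), SVIP (0.205) and GATA2-AS1 (0.214), and for ODC1 CRIP2 (0.109), MOSPD1 (0.14) and NUTM2B-AS1 (0.144). With 4 libraries such a likeness is a description of their order and spacing.

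In the PC-3 tissues, the coculture was compared with the monoculture to see what adding fibroblasts went with. All 10 genes were lower in the coculture, by between 0.06 and 0.57 on the log2 scale, except that SAT1 was at 0.01 with the length and GC trend taken out. That step also put OAZ1 at -0.14, against -0.27, and AMD1 at -0.36, against -0.43, and left ODC1 at -0.57. The decarboxylases stood lowest. ODC1 had 15211 counts in the coculture, against 22929 in the monoculture, a ratio of 0.676 (0.662 to 0.690). AMD1 had 3260 counts in the coculture, against 4483 in the monoculture, a ratio of 0.741 (0.708 to 0.775). OAZ1 followed with a ratio of 0.829 (0.798 to 0.861). OAZ2 (0.858), SAT1 (0.866), SRM (0.875), SMS (0.894) and AZIN1 (0.933) had intervals below 1, whereas those of SMOX (0.958, 0.870 to 1.06) and PAOX (0.923, 0.611 to 1.39) included 1.

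None of the 10 genes was 2-fold higher or lower in that comparison, beside 2.22% of 14417 genes higher and 1.01% lower. ODC1 alone was at least 1.41-fold lower (log2 -0.57), beside 5.47% of all genes, and 0 of the 10 were 1.41-fold higher, beside 5.82%. The median log2 fold was -0.20 over the 10 genes and 0.00 over all genes, of which 7098 were below 0. Among genes at 20 CPM or more in 1 of the 2 libraries, a limit set after seeing the data, 64 of 8802 were as low as ODC1 or lower, ODC1 included. Among genes at 200 CPM or more, 10 of 1078 were.

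In bulk RNA, fewer cells of a type and less RNA per cell cannot be told apart. Fibroblast markers were 264.8 CPM in the PC-3 coculture, against 1.82 CPM in the monoculture, with 1 of 10 at 3 counts or fewer in the coculture and 7 of 10 in the monoculture. The 4 PC-3 markers summed to 955.1 CPM in the coculture and 1077.5 CPM in the monoculture, but fibroblasts also express them. Of these VIM was lower in the coculture (663.0 CPM, against 805.6), while CD44 (179.8, against 165.9) and CAV1 (72.0, against 65.6) were higher and AXL was at 40.3 in both. Epithelial markers summed to 2152.8 CPM in the coculture and 1936.7 CPM in the monoculture. Proliferation genes summed to 566.7 CPM in the coculture and 480.4 CPM in the monoculture. Of these MKI67 (127.0, against 82.4), TOP2A (104.3, against 74.4) and MCM2 (72.2, against 54.9) were higher. PCNA, CCNB1 and CDK1 were within counting error. Ribosomal protein genes took 2.07% of counts in the coculture and 2.74% in the monoculture. The 2756 genes with the shortest transcripts had a median log2 fold of -0.14. The part of these in the result was not tested.

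In the LNCaP tissues 5 genes were higher and 5 lower in the coculture than in the monoculture, all by under 1.41-fold (7 higher and 3 lower under DESeq2 size factors or with the length and GC trend taken out). SRM had 2360 counts in the coculture, against 2004 in the monoculture, and was 1.20-fold higher (1.13 to 1.27). OAZ2 had 2412 counts in the coculture, against 2152 in the monoculture, and was 1.14-fold higher (1.08 to 1.21). AMD1 had a ratio of 0.904 (0.888 to 0.921), and OAZ1 had 0.904 as well (0.881 to 0.928). For ODC1 the ratio was 0.991 (0.957 to 1.03), and the intervals of SMS, AZIN1, SAT1, SMOX and PAOX also included 1.

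None of the 10 was 2-fold higher or lower in the LNCaP coculture, beside 4.56% of 14119 genes higher and 3.03% lower. Likewise 0 of 10 were 1.41-fold higher or lower, beside 9.48% and 11.4% of all genes. The median log2 fold was 0.03 over the 10 genes and 0.00 over all genes. With the trend on length and GC content taken out, OAZ1 turned to 0.07 and SAT1 to 0.16 on the log2 scale, and SRM was at 0.56, against 0.26 without that step. Fibroblast markers summed to 532.8 CPM in the coculture and 0.823 CPM in the monoculture, with 1 of 10 at 3 counts or fewer in the coculture and 9 of 10 in the monoculture. PC-3 markers, which fibroblasts also express, summed to 415.2 CPM in the coculture and 98.9 CPM in the monoculture. LNCaP markers summed to 9762.7 CPM in the coculture and 7653.6 CPM in the monoculture, and epithelial markers to 2337.3 and 1945.2 CPM. Proliferation genes summed to 601.8 CPM in the coculture and 748.7 CPM in the monoculture, and ribosomal protein genes took 3.59% of counts in the coculture and 5.73% in the monoculture. The 2687 genes with the shortest transcripts had a median log2 fold of -0.14. Their part in the result was not tested.

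**Figure D4:**
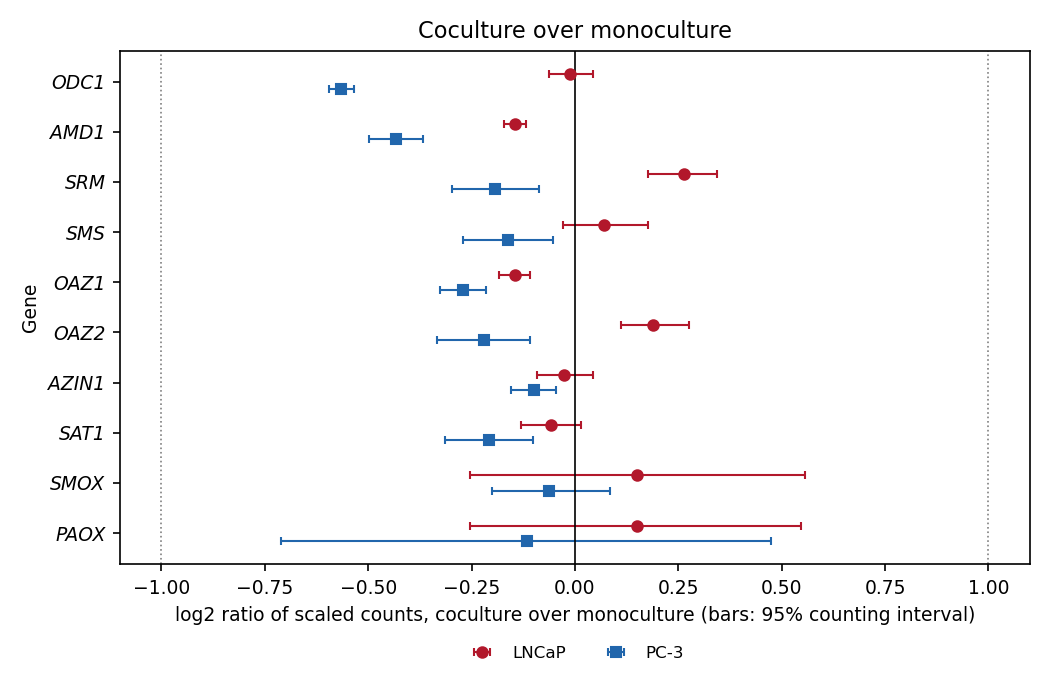
Log2 ratio of scaled counts, coculture over monoculture, in LNCaP (circles) and PC-3 (squares), with 95% counting intervals; dotted lines mark 2-fold. All PC-3 points lay left of 0, with ODC1 furthest at a ratio of 0.676, and the LNCaP points lay on both sides of 0.

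The coculture over monoculture log2 folds of the lines were then subtracted, LNCaP minus PC-3. The difference was 0.55 for ODC1 (0.49 to 0.61), 0.45 for SRM (0.32 to 0.59), 0.41 for OAZ2 (0.27 to 0.55) and 0.29 for AMD1 (0.22 to 0.36). For SMS it was 0.24, for SAT1 0.15 and for OAZ1 0.13, each with an interval above 0. The intervals of AZIN1 (0.07, -0.01 to 0.16), SMOX (0.21, -0.20 to 0.62) and PAOX (0.26, -0.42 to 0.93) included 0. All 10 differences were above 0, beside 52.4% of 13005 genes, whose median was 0.02. With the length and GC trend taken out, SRM was at 0.67, AMD1 at 0.18 and OAZ1 at 0.21, outside their counting intervals. AZIN1 was then at 0.01. With 1 library per group these differences were not tested against the spread between tissues.

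Beyond the 10 genes, 36 of 41 listed genes of the wider polyamine pathway were in the table. In monoculture, 10 of 32 measured were at least 2-fold higher in LNCaP and 5 lower, beside 22.1% and 23.6% of all genes. In coculture, 11 of 33 were higher and 4 lower, beside 20.7% and 23.6%. In the LNCaP coculture 2 of 32 were at least 2-fold higher than in the monoculture and 0 lower, beside 4.56% and 3.03% of all genes. In the PC-3 coculture 0 of 30 were at least 2-fold higher than in the monoculture and 1 lower, beside 2.22% and 1.01%. Genes named below had a log2 fold of at least 0.5 in size and at least 20 counts in the higher library, apart from EIF5A, chosen after its values were seen.

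Genes of arginine and ornithine metabolism went different ways between the lines. ARG2, the mitochondrial arginase that makes ornithine from arginine, had 1625 and 1214 counts in the LNCaP coculture and monoculture, against 233 and 268 in the PC-3 coculture and monoculture. It was 4.58-fold higher in LNCaP in monoculture (4.01 to 5.25) and 7.05-fold higher in coculture (6.14 to 8.12). OAT, the aminotransferase that links ornithine with glutamate and proline, had 394 and 218 counts in the LNCaP coculture and monoculture, against 1509 and 1292 in the PC-3 coculture and monoculture. It was 5.86-fold lower in LNCaP in monoculture (5.08 to 6.80) and 3.79-fold lower in coculture (3.39 to 4.25). SLC7A1, a cationic amino acid transporter, was 2.84-fold higher in LNCaP in monoculture (2.61 to 3.09). Of this list, 3 of 7 were at least 2-fold higher in LNCaP and 1 lower in monoculture (all genes 22.1% and 23.6%), and 4 of 8 higher and 1 lower in coculture (20.7% and 23.6%). OAT was also 1.84-fold higher in the LNCaP coculture than in its monoculture (1.56 to 2.18).

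The methionine cycle and salvage genes, which supply S-adenosylmethionine and recover its by-product, had 4 of 9 at least 2-fold higher in LNCaP and 0 lower in monoculture (all genes 22.1% and 23.6%), and 3 of 9 higher and 1 lower in coculture (20.7% and 23.6%). ENOPH1, a salvage enzyme, was 2.90-fold higher in LNCaP in monoculture (2.66 to 3.17) and 3.39-fold higher in coculture (3.10 to 3.72). MAT2A, which makes S-adenosylmethionine in most tissues, had 2066 and 2865 counts in the LNCaP coculture and monoculture, against 5570 and 4960 in the PC-3 coculture and monoculture. It was 2.67-fold lower in the LNCaP coculture than in the PC-3 coculture (2.54 to 2.81). MAT1A, the liver form, had 20 and 38 counts in the LNCaP coculture and monoculture and 0 in either PC-3 library. Against a floor of 3 counts in PC-3 it was 6.73-fold higher in LNCaP in coculture and 12.8-fold in monoculture, without counting error in LNCaP. Within LNCaP it was 1.87-fold lower in the coculture (1.06 to 3.39).

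Several folds of the transport genes and minor enzymes rest on few counts. SLC12A8 had 568 and 408 counts in the LNCaP coculture and monoculture, against 144 and 152 in the PC-3 coculture and monoculture. SLC22A3, an organic cation transporter, had 74 and 33 counts in the LNCaP coculture and monoculture, against 1 and 6 in the PC-3 coculture and monoculture, and was 2.28-fold higher in the LNCaP coculture than in its monoculture (1.50 to 3.55). SLC47A1, another cation transporter, had 2 counts in the PC-3 coculture, against 28 in the PC-3 monoculture, and was 13.7-fold lower (3.47 to 119.1). It had 5 and 1 counts in the LNCaP coculture and monoculture, and was 27.7-fold lower in the LNCaP monoculture than in the PC-3 monoculture (4.58 to 1132.6). SLC18B1, a vesicular polyamine transporter, was 3.80-fold lower in the LNCaP coculture than in the PC-3 coculture (2.94 to 4.97). Of the transport genes, 2 of 8 were at least 2-fold higher in LNCaP and 3 lower in monoculture (all genes 22.1% and 23.6%), and 2 of 7 higher and 1 lower in coculture (20.7% and 23.6%).

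AOC1, the amine oxidase that degrades putrescine and histamine, had 49 counts in the LNCaP coculture, against 7 in the LNCaP monoculture, and was 7.13-fold higher (3.21 to 18.6). It was at 0 in both PC-3 libraries. Against the floor of 3 counts, it was 16.5-fold higher in the LNCaP coculture than in the PC-3 coculture, again without counting error. AGMAT, annotated as agmatinase, had 3 and 1 counts in the LNCaP coculture and monoculture, against 68 and 58 in the PC-3 coculture and monoculture. It was 22.4-fold lower in LNCaP in coculture (7.36 to 111.5) and 57.4-fold lower in monoculture (9.90 to 2304.8). OAZ3, the testis antizyme, had 80 and 105 counts in the LNCaP coculture and monoculture, against 24 in either PC-3 library. Hypusination, which modifies EIF5A with spermidine, had 0 of 4 genes at least 2-fold higher or lower between the lines in either culture, beside the same shares of all genes (22.1% and 23.6% in monoculture, 20.7% and 23.6% in coculture), and EIF5A itself was 0.975-fold in monoculture (0.934 to 1.02).

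**Figure D5:**
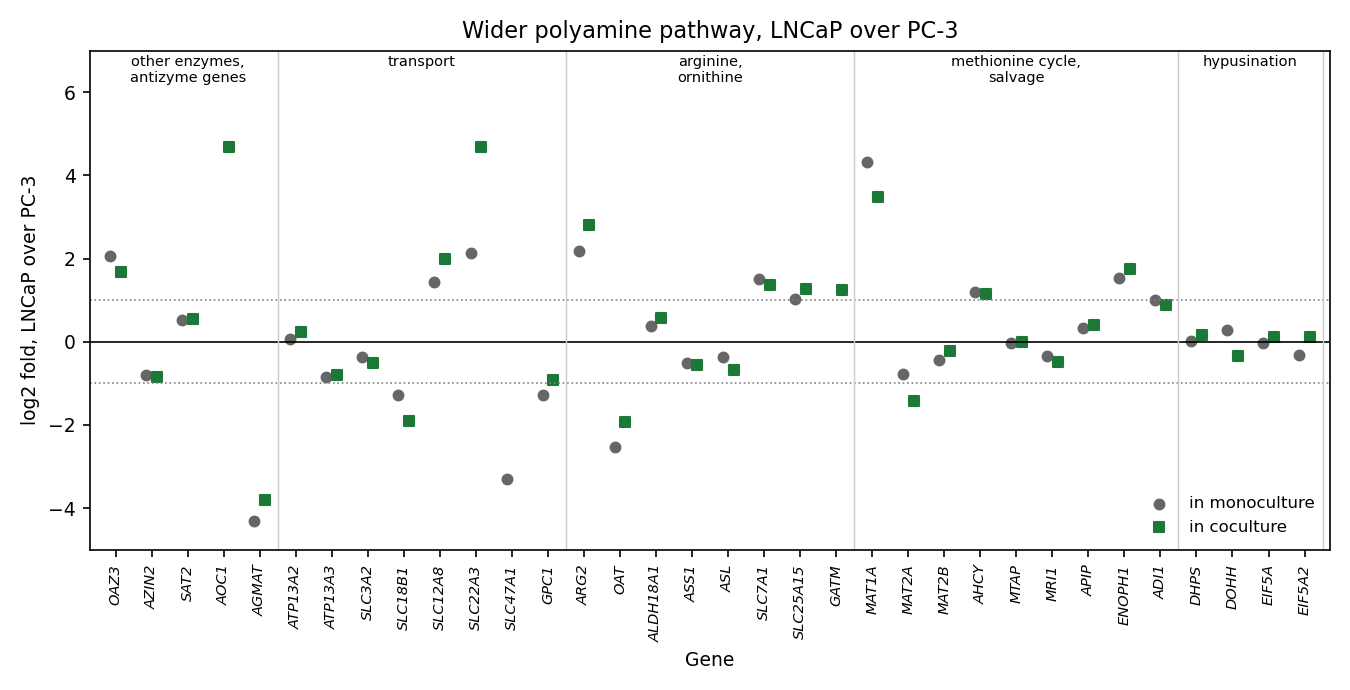
Log2 fold with a prior count of 2, LNCaP over PC-3, for 34 wider pathway genes at 1 CPM or more in 1 of the libraries compared, in monoculture (circles) and in coculture (squares); dotted lines mark 2-fold. ARG2 and SLC12A8 lay above and OAT and SLC18B1 below 2-fold in both cultures, the hypusination genes lay near 0, and the points of AOC1, AGMAT, SLC22A3, SLC47A1 and MAT1A rest on 6 or fewer counts in 1 of the libraries.

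Known regulators were set beside the synthesis genes. MYC had 5010 and 5924 counts in the LNCaP coculture and monoculture, against 1400 and 1438 in the PC-3 coculture and monoculture, and was 4.16-fold higher in LNCaP in monoculture (3.93 to 4.41). MAX, its partner, had 861 and 852 counts in the LNCaP coculture and monoculture, against 2296 and 2736 in the PC-3 coculture and monoculture. MYCN, a relative of MYC, was at 0 in both LNCaP libraries and had 19 and 24 counts in the PC-3 coculture and monoculture. ODC1 and SRM, which hold E-boxes, lay on different sides in the lines, ODC1 lower and SRM higher in LNCaP. Between coculture and monoculture of PC-3, where ODC1 differed most, MYC had a ratio of 0.992 (0.921 to 1.07) and MAX of 0.855 (0.808 to 0.904).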

How the data were processed

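Per the labels' protocols, RNA was extracted with a QIAshredder and RNeasy kit for TruSeq RNA v2 libraries. The authors deposited estimated counts per gene symbol in 1 column per library; the submitters' processing notes name FastQC, STAR, Partek and hg38. Roles, versions, annotation and filters are not given in the sources used here. Of the values, 33.5% to 34.0% per library were not whole, and all were rounded. Totals were scaled with TMM factors (edgeR 4.0.16, R 4.3.3), between 0.996 and 1.006. Log2 folds used a prior count of 2 and genes at 1 CPM or more in 1 of the 2 libraries compared. Other folds are scaled count ratios with a 95% interval from the exact conditional binomial distribution; differences of effects have a delta-method interval. A count of 0 allows up to 3 counts, between 0.188 and 0.193 CPM per library. Lengths are those of principal GENCODE v29 transcripts, known for 93.5% of genes. Positions and promoters are from RefSeq on GRCh38.p14.

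The 10 genes and all lists were chosen with earlier results of these data known. All 10 were named in each comparison, and wider genes by log2 fold of at least 0.5 in size and 20 counts in the higher library, up to 15 per comparison. Alternatives were library totals, DESeq2 1.42.0 size factors, a prior count of 0.5, filters of none and 5 CPM, unrounded counts, a length and GC trend taken out, and a scaling added after seeing the data. Some regulator genes are not reported here. Methods were tested on simulated data. Python 3.11.15, numpy 2.4.6, pandas 2.3.3, scipy 1.17.1 and matplotlib 3.10.9 were used.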

Additional observations from a re-analysis of the deposited data

Results flagged for a closer look

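In 3 of the 10 genes and 36 wider pathway genes, the coculture lay on opposite sides of the monoculture in the lines, with neither counting interval reaching 1. The difference of log2 folds, LNCaP minus PC-3, was 0.45 for SRM (0.26 in LNCaP and -0.19 in PC-3) and 0.41 for OAZ2 (0.19 in LNCaP and -0.22 in PC-3). For MAT2A it was -0.64 (-0.45 in LNCaP and 0.19 in PC-3). With the length and GC trend taken out, the difference was 0.67 for SRM and 0.43 for OAZ2. Each of the 3 rests on 1 library per group, and the difference was not tested. Opposite signs alone, whatever the counting intervals, were found in 43.0% of 13005 genes. The share of all genes that also met the interval rule was not computed, so 43.0% is not a background for these 3.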

How the results depend on the processing

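No paired analysis was possible because each group had 1 library. No log2 fold of at least 1 in size among the 10 genes changed sign. Without a filter on low counts, 1286 genes were 2-fold higher and 753 were 2-fold lower in the LNCaP coculture (644 and 428 as reported), and 906 higher and 440 lower in the PC-3 coculture (320 and 146). At 5 CPM or more these were 240 and 154 in LNCaP, and 87 and 21 in PC-3. With the length and GC trend taken out, 252 genes were 2-fold lower in the LNCaP coculture, and the median of the 10 genes there was 0.14, against 0.03. In the PC-3 coculture the median was then -0.11, against -0.20. Taking out that trend moved 19 of 50 single-gene values beyond their counting intervals, DESeq2 size factors 5 and the added scaling 6. Library totals, a prior count of 0.5 and unrounded counts moved none. The filters on low counts only choose which genes are kept, so they cannot move a single-gene value. DESeq2 size factors put 7 of the 10 genes above 0 in the LNCaP coculture (ODC1 0.03, AZIN1 0.01). In the LNCaP over PC-3 monoculture comparison SMS was -0.05 with DESeq2 size factors and -0.03 with the added scaling. OAZ2 in coculture was 0.98 and 0.95 under the same settings. ODC1 in the PC-3 coculture stayed between -0.58 and -0.55 on the log2 scale under all settings. The added scaling left genes at least 2-fold higher in either coculture out of the totals. Depth limits PAOX in PC-3 most, at 48 and 53 counts, then PAOX and SMOX in LNCaP, at 101 to 112.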
